A study of Orbilia oligospora ATCC 24927 with 24 samples.

Results

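Assembled loci without a gene name are stretches of transcribed genome that were put together from the RNA-seq reads themselves and that carry an identifier of the assembler (MSTRG followed by a number) in place of a gene of the annotation. In the expression table of the PkaC1 experiment, 1568 of 13047 entries were such loci. The 827 loci described here are those with a TPM (an abundance scaled to the length of the entry and to the total of its library) of at least 1 in 3 or more of the 12 libraries, which is 52.7% of the 1568. The table of the other experiment in the series held 0 such loci, and the authors' deposited table of comparisons for the PkaC1 experiment, with 11479 entries, also held 0 of them.

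The organism is the nematode-trapping fungus Arthrobotrys oligospora, named Orbilia oligospora in the labels, strain ATCC 24927, whose hyphae were grown on potato dextrose agar at 28 °C. RNA-seq of total RNA was available for 4 groups of 3 libraries: wild type with no treatment, wild type given nematode extract for 12 h to induce traps, the AoPkaC1 deletion mutant with no treatment, and that mutant after the same 12 h induction. AoPkaC1 is named for a catalytic subunit of PKA, the protein kinase that cAMP activates, and the comparisons ask how transcription differs with the deletion and with the induction. No untreated group was sampled at 12 h, so the extract and the passage of time cannot be told apart, and the labels do not say how many transformants stand behind the mutant.

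A transcript assembler guided by an annotation keeps the known genes and adds a locus wherever spliced or continuous read coverage lies outside them. Such loci can be protein-coding genes that the annotation missed, untranslated or antisense transcripts, noncoding RNAs, ribosomal RNA or transcripts of the mitochondrial genome. In nematode-trapping fungi, cAMP-PKA signalling is known to act in the switch from hyphae that live on dead matter to hyphae that carry traps.

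No nucleotide sequence of the loci is held in the files used here, and the sources used here do not give the genome build. The loci are therefore identified by their identifier, their length and the annotation that the authors deposited beside them. Whether reads were counted by strand is not stated, so a locus and a gene on the opposite strand at the same place cannot be told apart. TPM keep no read number, so the depth behind each value is unknown. The design text speaks of biological replicates, but no label ties a library to a culture, so every p-value below measures the spread between libraries, which may be technical. In such bulk samples, fewer cells of a type and less RNA per cell cannot be told apart.

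The loci ranged in length from 202 to 30609 bases, with a median of 1197 and quartiles of 592 and 2035. Only 33.5% of their lengths were a multiple of 3, against 99.98% of the 8977 annotated genes at the same level of detection, whose deposited lengths are therefore coding lengths. None of the loci was under 200 bases, 174 had 200 to under 500 bases, 182 had 500 to under 1000, 254 had 1000 to under 2000 and 217 had 2000 or more. The share with a protein match was larger among longer loci, from 10.3% of loci under 500 bases to 52.1% of those of 2000 bases or more.

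Most of these loci were uncharacterized. No match in the protein database was listed for 586 of the 827, and 584 carried no annotation of any kind. Of the 241 with a match, 227 matched a protein described as hypothetical. The matched protein came from another genome record of Arthrobotrys oligospora in 176 loci, from another fungus of the same family (Orbiliaceae) in 31, from other fungi in 13, from a mitochondrial genome in 13 and from a named gene of strain ATCC 24927 itself in 8. Duddingtonia flagrans, another nematode-trapping species, gave 23 of the matches. A Pfam domain was listed for 45 loci, a Swiss-Prot match for 25 and a KEGG orthologue for 12.

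The 12 loci with a KEGG orthologue held 9 different orthologues. For 5 of the 9, no annotated gene in the table carried the same orthologue: mitochondrial NADH dehydrogenase subunits 5 and 1 (ND5, ND1), cytochrome b (CYTB), the succinate dehydrogenase assembly factor SDHAF1, and ribosomal protein S29 (RPS29). The other 4, a lipase (TGL2), an endoxylanase (xynA), a Ras GTPase and the ubiquitin ligase subunit RBX1, were each also carried by at least 1 annotated gene.

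**Figure D1:**
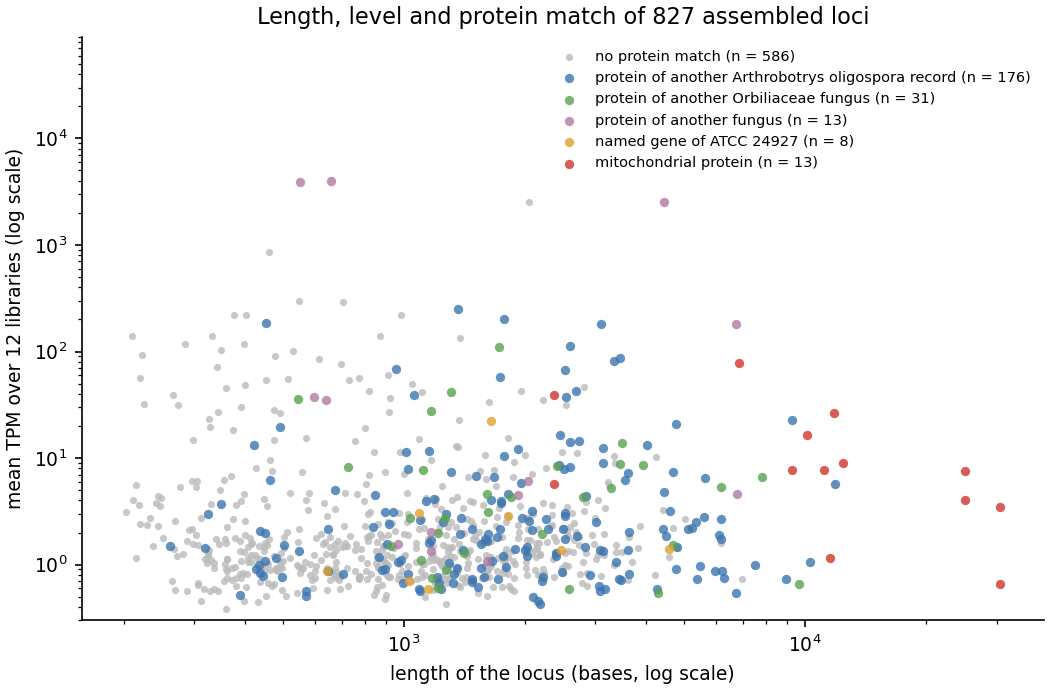
Length in bases (horizontal, log scale) against mean TPM over the 12 libraries (vertical, log scale) of the 827 assembled loci, with each point coloured by the kind of protein match in the deposited annotation. The 13 loci with a mitochondrial match are among the longest, reaching 30609 bases, and 4 loci have a mean above 1000 TPM.

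As a group the loci were low. The median of their mean TPM was 1.55, against 23.2 for annotated genes that passed the same filter. TPM divide by length, but the deposited lengths are coding lengths for the genes and not for the loci as a set. The 2 medians are therefore not strictly alike in scale. A mean of 10 TPM or more was reached by 108 loci, 100 TPM by 25 and 1000 TPM by 4, while 659 stayed under 5 TPM. A TPM of 1 was reached in all 12 libraries by 181 loci and in exactly 3 libraries by 159. At the edge of the rule, MSTRG.6665, MSTRG.6596 and MSTRG.3494 had 1.0 TPM as the third highest value, and MSTRG.8330, MSTRG.630 and MSTRG.6217 fell just outside with 0.98 TPM.

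The rule itself favours loci that are high in 1 group. Values of 1 TPM or more were confined to the libraries of a single group for 80 loci, of which 31 were in untreated wild type, 7 in induced wild type, 36 in the untreated mutant and 6 in the induced mutant. Such a locus had to differ between groups to enter, and the counts of calls below are read with that in mind. The mean reached 1 TPM for 606 loci in untreated wild type, 393 in induced wild type, 626 in the untreated mutant and 391 in the induced mutant. The group with the highest mean was untreated wild type for 35.2% of the loci and the untreated mutant for 41.7%, against 23.0% and 43.2% of all 9804 entries tested. Induced wild type held the highest mean of 13.4% of the loci, against 23.9% of all entries, and the induced mutant 9.67% against 9.92%.

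Each entry at 1 TPM or more in 3 libraries was tested with limma on log2(TPM + 1), the 9804 entries together, and called at a Benjamini-Hochberg adjusted p under 0.05 over all of them. Fold changes are log2 values of TPM + 1 with their standard error (SE), so those of low loci are understated. Wild type libraries lay closer to each other than mutant libraries. At 10 to 100 TPM the median coefficient of variation of the loci was 7.37% and 7.30% in the 2 wild type groups (untreated, induced) against 19.4% and 13.9% in the 2 mutant groups, and annotated genes showed 4.75% and 4.71% against 14.9% and 9.32%. The labels do not tell whether the wild type libraries came from separate cultures. Each call was therefore also made with wild type collapsed, that is with the log2 values of the 3 libraries of a wild type group averaged into 1, and it is said where that ended a call.

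The 2 candidate genes for the catalytic subunit served as a check on the labels. AOL_s00043g480 had a mean of 69.6, 50.3, 48.5 and 25.01 TPM in untreated wild type, induced wild type, untreated mutant and induced mutant, and fell in the mutant by 0.51 on the log2 scale untreated (limma adjusted p = 0.000116) and by 0.98 induced (adjusted p = 8.45e-07). AOL_s00078g405 had 57.1, 25.9, 51.2 and 25.04 TPM and was not called in either comparison (adjusted p = 0.107 and 0.619). Neither gene was near 0 in the mutant, and the files do not say which of them was deleted or how much of it. The design text of the series speaks of a mutant of another gene, AorlmA, which none of the sample labels mentions. The correlation of 2 libraries was 0.970 to 0.992 within a group and 0.778 to 0.919 between groups.

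After 12 h with the extract more of these loci were lower than higher, in both strains. In wild type 324 loci were lower after 12 h and 85 higher, which together are 49.5% of the 827, while 67.7% of all tested entries were called (41.2% lower and 26.5% higher). In the mutant 401 were lower and 70 higher, 57.0% of the loci against 79.4% of all entries (61.0% lower and 18.4% higher). The median log2 change of the loci was -0.42 in wild type and -0.56 in the mutant, and that of all entries was -0.19 and -0.70. The 2 inductions share no library, and 227 loci were lower in both, which is 70.1% of those lower in wild type and 56.6% of those lower in the mutant. For all entries the corresponding shares were 79.2% and 53.5%. Loci higher in both numbered 26, which is 30.6% of those higher in wild type and 37.1% of those higher in the mutant, against 41.5% and 59.8% for all entries. Those higher in wild type and lower in the mutant numbered 17, 4.24% of the loci lower in the mutant against 14.2% for all entries. Those lower in wild type and higher in the mutant numbered 14, 4.32% of the loci lower in wild type against 8.96%.

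Between strains the balance was more even. In untreated hyphae 208 loci were higher and 186 lower in the mutant, 47.6% of the loci against 63.0% of all entries (39.1% higher and 23.8% lower). After induction 99 were higher and 159 lower, 31.2% against 67.3% (18.2% higher and 49.1% lower). The median log2 difference of the loci was 0.04 untreated and -0.06 induced, beside 0.19 and -0.35 for all entries. Higher in the mutant at both times were 52 loci, 52.5% of the 99 higher after induction, against 51.6% for all entries. Lower at both times were 70, which is 37.6% of those lower untreated and 44.0% of those lower after induction, against 53.1% and 25.8% for all entries. The change on induction differed between the strains for 311 loci, 37.6% against 68.7% of all entries, and in 187 of them it was lower in the mutant and in 124 higher, beside 51.0% of all entries lower and 17.7% higher. With a change of at least 2-fold also required, 206 loci were called between untreated strains, 24.9% of the loci against 23.3% of all entries. Between induced strains 106 were called (12.8% against 22.9%), and on induction of wild type 230 (27.8% against 32.2%). On induction of the mutant 269 were called (32.5% against 47.2%), and for the difference of the responses 207 of 827 (against 41.3%). The 3 libraries of a group did not overlap those of the other for 448 loci between untreated strains (54.2% of the loci, against 67.3% of all entries), 312 between induced strains (37.7% against 73.0%), 498 on induction of wild type (60.2% against 79.5%) and 426 on induction of the mutant (51.5% against 76.7%).

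**Figure D2:**
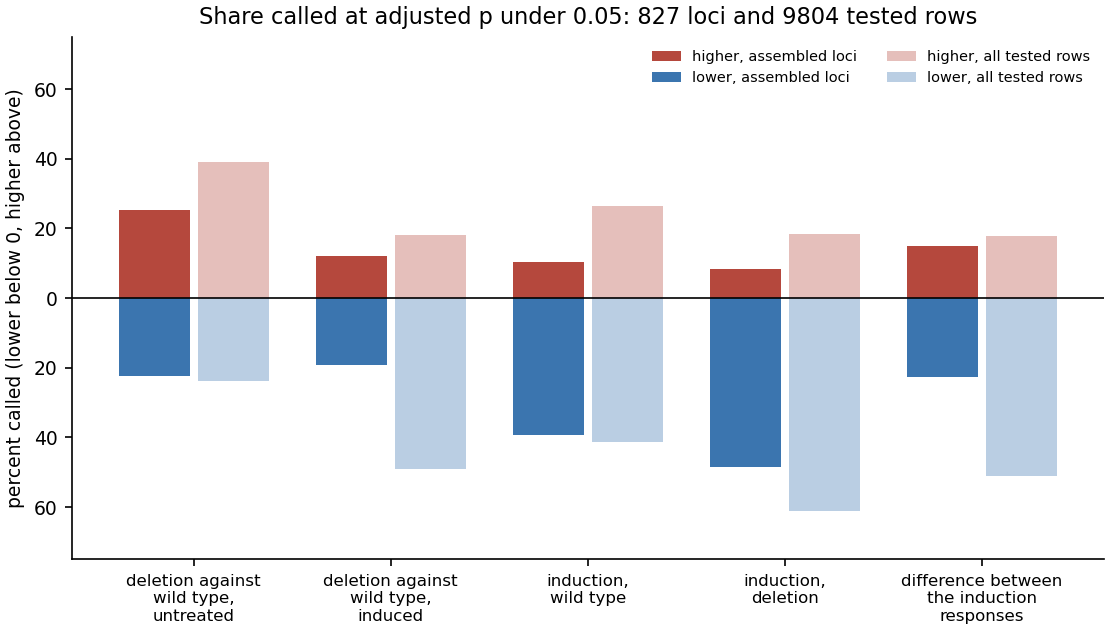
Percent of entries called at adjusted p under 0.05 in each of the 5 comparisons, higher above 0 and lower below 0, for the 827 assembled loci (full colour) and for all 9804 tested entries (pale). The loci have a smaller total share than all entries in every comparison, and among them lower calls outnumber higher ones in both inductions.

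At a like level the loci and the annotated genes were called at shares closer to each other, though not equal. Among loci with a mean of 10 TPM or more, 86 of 108 were called for induction in wild type (79.6%, against 75.3% of annotated genes at that level), 85 in the mutant (78.7% against 85.7%), 80 between untreated strains (74.1% against 67.3%), 74 between induced strains (68.5%, against 5018 of 6275 annotated genes) and 75 for the difference of the responses (69.4% against 78.4%). From 2 to under 10 TPM the loci had the smaller share in all 5 comparisons, at 57.5% of 221 against 61.9% for induction in wild type, 65.6% against 77.0% in the mutant, 53.8% against 62.2% between untreated strains, 43.0% against 54.7% between induced strains and 42.5% against 61.4% for the difference of the responses. Under 2 TPM, 196 of 498 loci were called for induction in wild type (39.4%, against 39.0% of annotated genes), 48.4% against 57.5% in the mutant, 39.2% against 45.5% between untreated strains, 17.9% against 34.3% between induced strains and 28.5% against 41.7% for the difference of the responses.

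Directions depended on how libraries were scaled, because the median TPM of the tested entries itself fell from 19.6 to 19.9 in untreated wild type to 16.6 in induced wild type and from 21.5 to 26.0 in the untreated mutant to 11.5 to 12.5 in the induced mutant. With every library set to the same median, the median change of all entries moved from -0.19 to 0.00 (induction in wild type), from -0.70 to 0.09 (induction in the mutant), from 0.19 to -0.02 (untreated strains), from -0.35 to 0.00 (induced strains) and from -0.58 to 0.01 (difference of the responses). The split of the loci then became 107 higher and 267 lower for induction in wild type, 164 and 213 for induction in the mutant, 160 and 209 between untreated strains, 167 and 97 between induced strains, and 190 and 95 for the difference of the responses. Lower loci outnumbered higher ones on induction under both scalings, and between induced strains they did so only without the rescaling.

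The summed level of the loci was dominated by 4 of them. All 827 together took 16604 to 18199 TPM in untreated wild type, 18867 to 27572 in induced wild type, 21098 to 22060 in the untreated mutant and 22151 to 26086 in the induced mutant, which is 1.66% to 2.76% of a library. MSTRG.3757, MSTRG.3758, MSTRG.3760 and MSTRG.5329 made up 38.3% to 75.6% of that sum. Without these 4, which were chosen after their values were seen, the sum was 10133 to 10253 TPM in untreated wild type, 7165 to 7405 in induced wild type, 10310 to 10585 in the untreated mutant and 6311 to 6556 in the induced mutant. On the deposited TPM scale both induced groups then lay below both untreated groups with no overlap, whereas with the 4 loci included both lay above their own untreated group. The factors that set libraries to the same median were 0.69 to 0.84 in the untreated mutant and 1.44 to 1.56 in the induced mutant. Under that scaling the fall without the 4 loci does not hold in the mutant.

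**Figure D3:**
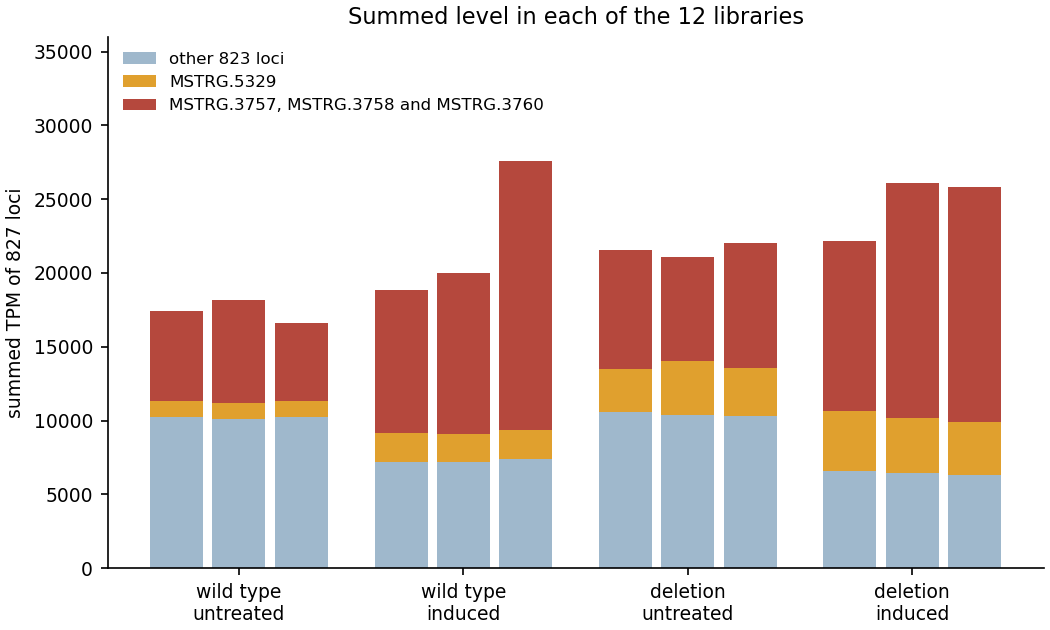
Summed TPM of the 827 loci in each of the 12 libraries (bars, 3 per group), split into MSTRG.3757, MSTRG.3758 and MSTRG.3760 (red), MSTRG.5329 (yellow) and all other loci (blue). The blue part is 10133 to 10585 TPM in untreated libraries and 6311 to 7405 TPM in induced ones, and the third library of induced wild type has the tallest red part.

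MSTRG.3757, MSTRG.3758 and MSTRG.3760 were the first, the second and the fourth most abundant loci. MSTRG.3760, of 4457 bases, matched the Swiss-Prot entry TAR1, a small protein that in Saccharomyces cerevisiae is encoded antisense within the gene of the large ribosomal RNA. MSTRG.3757 (657 bases) and MSTRG.3758 (549 bases) matched hypothetical proteins of Rhizophagus clarus and Mitosporidium daphniae and carried no other annotation. Whether poly(A) RNA was selected or ribosomal RNA removed is not stated. The part of ribosomal RNA in the levels of these loci was not tested. In both wild type groups the libraries stood in the same order for all of them. These loci may therefore not be independent, and their p-values below are not separate evidence.

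MSTRG.3757 stood at 2374, 2750 and 2056 TPM in the 3 libraries of untreated wild type, at 3926, 4290 and 7329 in induced wild type, at 2854, 2535 and 3061 in the untreated mutant and at 4317, 5979 and 5893 in the induced mutant. Every induced library was above every untreated library, and the third library of induced wild type was far above the other 2. It rose on induction by a log2 of 1.07 in wild type (SE 0.219, limma adjusted p = 0.00108) and 0.93 in the mutant (SE 0.219, adjusted p = 0.0022).

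MSTRG.3760 had 1526, 1785 and 1385 TPM in untreated wild type, 2499, 2888 and 4626 induced, 1829, 1632 and 1906 in the untreated mutant and 2714, 3724 and 3584 induced, a rise of 1.05 (adjusted p = 0.00077) and 0.89 (adjusted p = 0.00187). Its induced libraries too lay above every untreated one. MSTRG.3758 had 2234, 2454 and 1859 TPM in untreated wild type, 3286, 3754 and 6282 induced, 3417, 2889 and 3547 in the untreated mutant and 4443, 6202 and 6454 induced, with no overlap between times within a strain. It rose by 0.98 (adjusted p = 0.00248; 0.0543 with wild type collapsed) and 0.78 (adjusted p = 0.00774). Its call between untreated strains (0.59 higher in the mutant, adjusted p = 0.0392) was lost without any 1 of 4 single libraries, with adjusted p up to 0.132. That call also ended with wild type collapsed, with libraries set to the same median (0.36, adjusted p = 0.231) and with no filter on low values (adjusted p = 0.0561). The third library of induced wild type held 18238 TPM in these 3 loci, the other 2 held 9710 and 10932, and the rise of each of the 3 loci in wild type was still called without it.

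MSTRG.5329, of 2048 bases and with no protein match, was the third most abundant. It had 1049, 1079 and 1060 TPM in untreated wild type, 1934, 1919 and 1929 in induced wild type, 2879, 3638 and 3235 in the untreated mutant and 4121, 3731 and 3583 in the induced mutant. Both mutant groups were above both wild type groups in every library, while the 2 mutant groups overlapped. It was higher in the mutant by 1.61 untreated (SE 0.0867, adjusted p = 3.1e-08) and by 0.98 induced (adjusted p = 2.4e-06), and it rose by 0.86 on induction of wild type (adjusted p = 3.82e-06). The rise in the mutant was 0.23 (adjusted p = 0.0273), and the call ended without the first library of either mutant group (adjusted p = 0.0542 and 0.111) and with wild type collapsed (0.14).

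Other abundant loci without a protein match went in several directions. MSTRG.3855 (460 bases) was at 1141, 1088 and 1091 TPM in untreated wild type, 1052, 1013 and 1084 in induced wild type, 517, 540 and 595 in the untreated mutant and 749, 694 and 761 in the induced mutant. Its mutant and wild type libraries did not overlap at either time, and it was lower in the mutant by a log2 of -1.01 untreated (adjusted p = 1.92e-07) and -0.51 induced (adjusted p = 4.38e-05; -0.06 and 0.654 when libraries were set to the same median). MSTRG.7086 (703 bases) fell on induction from 515, 547 and 565 TPM to 166, 171 and 158 in wild type (log2 -1.71, adjusted p = 3.38e-09) and from 298, 325 and 303 to 160, 142 and 134 in the mutant (-1.09, adjusted p = 8.71e-08; -0.15 and 0.158 with the same median).

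MSTRG.9697 (984 bases) fell on induction of wild type from 287, 261 and 270 TPM to 154, 143 and 149, with no overlap (log2 -0.87, adjusted p = 3.36e-06). MSTRG.10967 (403 bases) was at 193, 209 and 210 TPM in untreated wild type and 179, 198 and 190 in induced wild type, which overlapped, and fell in the mutant from 387, 327 and 311 to 143, 162 and 154 (log2 -1.15, adjusted p = 2.06e-07). MSTRG.4219 (548 bases) stayed between 218 and 356 TPM in all 12 libraries. MSTRG.3483 (377 bases, chosen after its values were seen) rose on induction of wild type from 80.1, 81.3 and 86.0 TPM to 416, 415 and 440 (log2 2.35, adjusted p = 9.27e-09) and in the mutant from 115, 133 and 154 to 262, 241 and 195 (0.79, adjusted p = 5.75e-05). In both strains its induced libraries lay above all untreated ones, and its response was smaller in the mutant (difference -1.55, SE 0.163, adjusted p = 1.01e-05).

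MSTRG.521 was the most abundant locus with a named function. Its 1364 bases carry the Pfam domain of ribosomal proteins S14 and S29 and match the small-subunit ribosomal protein S29 of Neurospora crassa. Its level was 130, 137 and 130 TPM in untreated wild type, 411, 402 and 410 in induced wild type, 217, 188 and 160 in the untreated mutant and 282, 292 and 242 in the induced mutant. No 2 of the 4 groups overlapped. It rose on induction by 1.62 in wild type (SE 0.102, adjusted p = 7.2e-08) and by 0.53 in the mutant (SE 0.102, adjusted p = 0.000494), with a difference between the responses of -1.08 (SE 0.144, adjusted p = 5.44e-05). Between strains it was 0.49 higher in the mutant untreated (adjusted p = 0.00138) and 0.59 lower induced (log2 -0.59, adjusted p = 0.000339). Both of these calls ended with wild type collapsed (adjusted p = 0.097 and 0.0517), and the second also with libraries set to the same median (0.0794).

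The annotation text holding ribosome, rRNA or translation matched 6 loci, of which only MSTRG.521 carries a Pfam domain of a ribosomal protein, while MSTRG.1187 is matched to a peroxiredoxin-like protein and MSTRG.4206 to a ubiquitin ligase subunit. Of the 6, 2 were higher and 3 lower in the untreated mutant, 1 higher and 4 lower in the induced mutant, 2 and 2 on induction of wild type, 2 and 3 on induction of the mutant, and 1 and 3 for the difference of the responses. Over all entries the shares higher and lower in these comparisons, which are the background of each list that follows, were 39.1% and 23.8%, 18.2% and 49.1%, 26.5% and 41.2%, 18.4% and 61.0%, and 17.7% and 51.0%. Those shares hold for the main fit. Collapsing wild type lowered the share of all entries called in every comparison, so calls lost that way are not particular to a list. With libraries set to the same median, 60.9%, 60.8%, 69.5%, 73.0% and 61.0% of all entries were called, in the same order. With wild type collapsed the counts of the 6 were 1 and 2, 0 and 2, 1 and 0, 2 and 2, and 1 and 2, and with libraries set to the same median those on induction of the mutant were 3 and 2 and those for the difference 2 and 2. MSTRG.1747 (597 bases) carries the NCE101 domain, named for a protein of non-classical export in yeast, and its match in Pyronema omphalodes is described as similar to a mitochondrial ribosomal protein. It had 63.4, 62.0 and 58.8 TPM in untreated wild type and 54.6, 58.4 and 51.4 in induced wild type, against 17.4, 17.6 and 11.0 in the untreated mutant and 19.1, 16.0 and 21.4 in the induced mutant. Mutant and wild type libraries were far apart at both times (log2 -1.96, SE 0.158, adjusted p = 9.25e-07 untreated, and -1.50, adjusted p = 8.37e-06 induced), and neither induction was called (adjusted p = 0.383 and 0.104).

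MSTRG.4206 (638 bases) matched RBX1, the RING subunit of cullin ubiquitin ligases, for which 1 annotated gene carries the same orthologue. It fell from 66.9, 68.4 and 53.8 TPM in untreated wild type to 31.0, 33.4 and 31.9 on induction, and from 32.4, 41.0 and 27.8 to 17.1, 7.94 and 11.0 in the mutant. The untreated libraries were above the induced ones in each strain, and the mutant was below wild type after induction by 1.41 (log2 -1.41, SE 0.22, adjusted p = 0.000161). The fall in wild type (-0.94, adjusted p = 0.00253) and the difference of untreated strains (-0.89, adjusted p = 0.00427) were no longer called with wild type collapsed (adjusted p = 0.182 and 0.134).

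F-box proteins, which bring substrates to such ligases, and proteins with ankyrin repeats made up most of the 11 loci whose annotation names a repeat or interaction domain. None of the 11 was higher on induction in either strain, 7 were lower in wild type and 8 in the mutant, beside 41.2% and 61.0% of all entries lower. MSTRG.1157, described below, is among the 11. It entered the rule through untreated wild type alone, so its difference from that group was set by its entry. With libraries set to the same median, 5 were lower in wild type, and 4 lower and 2 higher in the mutant. With wild type collapsed only 1 was lower in wild type, and 7 in the mutant. In the untreated mutant 4 were higher and 3 lower than in wild type, and in the induced mutant 3 and 3. The difference between the responses was called for 3 of the 11, 1 higher and 2 lower. With libraries set to the same median these counts of higher and lower loci were 3 and 5 untreated, 3 and 1 induced, and 4 and 1 for the difference, and with wild type collapsed 2 and 1, 0 and 1, and 1 and 1. The background shares are those given with the ribosome terms.

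MSTRG.9999, an F-box locus of 4030 bases, had 21.2, 23.2 and 23.6 TPM in untreated wild type, 12.7, 13.5 and 12.7 induced, 13.3, 11.8 and 12.6 in the untreated mutant and 4.66, 7.12 and 4.22 induced. Every untreated wild type library was above all others, and every induced mutant library below all others. It was lower in the induced mutant by 1.16 (log2 -1.16, SE 0.144, adjusted p = 2.89e-05). MSTRG.9565, an F-box locus of 463 bases, was instead high in the untreated mutant alone, at 23.6, 12.5 and 19.6 TPM, against 0.33 to 4.44 TPM in the other 9 libraries (log2 2.63 against untreated wild type, SE 0.504, adjusted p = 0.000836).

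MSTRG.2002 (4669 bases, ankyrin repeats) was at 10.7, 10.8 and 10.9 TPM in untreated wild type, 5.20, 4.97 and 5.31 induced, 11.5, 9.85 and 9.05 in the untreated mutant and 3.07, 4.38 and 3.13 induced. The induced libraries lay below all untreated ones in both strains, a fall of 1.30 in the mutant (log2 -1.30, adjusted p = 1.95e-06) and of 0.94 in wild type (-0.94, adjusted p = 4.51e-05; 0.0508 with wild type collapsed). MSTRG.1157, chosen after its values were seen, matched a Ras GTPase, a small signalling switch protein, and had 6.96, 6.08 and 7.76 TPM in untreated wild type and at most 0.55 TPM in the other 9 libraries. It entered the rule through untreated wild type alone, so its levels are given with no test. For its orthologue 3 annotated genes are listed too.

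The words zinc finger, transcription factor or DNA binding were found for 10 loci, MSTRG.521 and the mitochondrial MSTRG.2686 among them. A zinc finger domain is listed for MSTRG.10545 (C2H2 type) and MSTRG.10586, whose match is the glucose transport regulator RGT1 of yeast. On induction 2 were higher and 4 lower in wild type, and 4 and 4 in the mutant, beside 26.5% of all entries higher and 41.2% lower in wild type and 18.4% and 61.0% in the mutant. With libraries set to the same median the counts were 4 and 2 in wild type and 7 and 0 in the mutant, and with wild type collapsed 1 and 1, and 3 and 3. Between strains 2 were higher and 2 lower untreated, and 2 and 4 induced, and the responses differed for 4 upward and 2 downward. With libraries set to the same median these were 1 and 3, 3 and 1, and 5 and 1, and with wild type collapsed 0 and 2, 1 and 0, and 3 and 1. MSTRG.6298 (1729 bases) and MSTRG.6297 (2516 bases) matched the same hypothetical protein, so reads of 1 transcript may be divided between them. MSTRG.6298 was at 63.8, 58.6 and 62.6 TPM in untreated wild type and 30.4, 28.2 and 31.8 induced, against 73.0, 77.2 and 78.8 and 60.9, 57.1 and 64.1 in the mutant, so that the induced mutant was above induced wild type in every library (log2 0.99, SE 0.0709, adjusted p = 5.16e-07).

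MSTRG.6297 was at 85.8, 89.0 and 90.03 TPM in untreated wild type and fell to 36.5, 34.5 and 32.6 on induction (log2 -1.33, adjusted p = 2.87e-08). MSTRG.5062 (1057 bases) ranged from 9.49 to 23.2 TPM in untreated wild type and 55.3 to 71.1 induced, and from 0.98 to 28.6 and 46.5 to 71.6 in the mutant. Its untreated libraries were widely spread but below all induced ones, and induction was called in the mutant (log2 2.53, SE 0.784, adjusted p = 0.0112; 0.0549 with wild type collapsed) and not in wild type (adjusted p = 0.0601).

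Annotation words for secretion or the cell surface matched 4 loci, MSTRG.1747, MSTRG.2002, MSTRG.7456 and MSTRG.1157, which were the export-domain locus, the ankyrin locus, an uncharacterized locus and the Ras GTPase named above. Of the 4, none was higher and 2 were lower in each of the 2 inductions, beside 41.2% (wild type) and 61.0% (mutant) of all entries lower. With wild type collapsed 1 was lower in each, and with libraries set to the same median 1 was higher and 1 lower on induction of the mutant. In the untreated mutant 1 was higher and 2 lower, in the induced mutant 0 and 2, and the difference of the responses was called for 1, which was higher. MSTRG.1157 is among the 4, and its entry alone set a difference from untreated wild type. Words ending in the usual suffix of enzymes matched 41 loci, 12 of them mitochondrial, and 14 were higher and 13 lower on induction of wild type, 6 and 18 on induction of the mutant, 7 and 11 in the untreated mutant, 9 and 18 in the induced mutant, and 9 and 10 for the difference of the responses. Of all entries 26.5% were higher and 41.2% lower on induction of wild type, and 18.4% and 61.0% on induction of the mutant. With libraries set to the same median the counts of the 41, in the same order, were 14 and 10, 18 and 4, 4 and 15, 9 and 13, and 13 and 2, so the balance turned for induction of the mutant and for the difference of the responses. With wild type collapsed they were 2 and 6, 6 and 12, 1 and 3, 4 and 10, and 4 and 2. Without the second library of the induced mutant 10 were higher and 15 lower on its induction. MSTRG.1157 is among the 41 too, with the same limit.

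Terms of mobile elements matched a single locus. MSTRG.248 (1090 bases) matched part of AOL_s00212g2, an annotated gene similar to the Tf2 retrotransposon polyprotein of Schizosaccharomyces pombe. Its level was low, 1.97 to 2.93 TPM in untreated wild type, 1.06 to 1.69 induced, 4.01 to 7.27 in the untreated mutant and 2.26 to 2.90 induced. The untreated mutant libraries were above all other 9 (log2 0.87 against untreated wild type, adjusted p = 0.00246; 0.0728 with wild type collapsed). The annotated gene had a mean of 70.7, 28.6, 87.9 and 27.8 TPM in the same order of groups.

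Loci with a mitochondrial protein match, a group formed after the values were seen, numbered 13. Their annotation names homing endonucleases of the LAGLIDADG and GIY-YIG kinds, enzymes commonly encoded inside mitochondrial introns, and subunits of the respiratory chain: NADH dehydrogenase, cytochrome b and cytochrome c oxidase. Most were long, from 2360 bases to 30609, and several may hold the same reads. MSTRG.2683 and MSTRG.2684 both had 24986 bases, MSTRG.2690 and MSTRG.2691 both 2360, and MSTRG.2697 and MSTRG.2698 both 30609, and each pair shared its protein match, so the values within a pair are uncertain and the 13 are not independent.

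After induction 12 of the 13 were lower in the mutant than in wild type and 1 was higher, beside 49.1% of all entries lower. The higher one was MSTRG.2690, which entered the rule through mutant libraries alone. On induction of wild type 9 were higher and none lower, beside 26.5% of all entries higher. On induction of the mutant none was higher and 3 were lower, beside 18.4% and 61.0% of all entries. In untreated hyphae 1 was higher and 4 lower in the mutant, beside 39.1% and 23.8%. The difference of the responses was called for 8, all lower, beside 51.0% of all entries lower. With libraries set to the same median, the counts were 1 higher and 8 lower between induced strains, 10 and 0 for wild type induction, 9 and 0 for mutant induction and 0 for the difference of the responses. With wild type collapsed they were 0 and 7, 1 and 0, 0 and 0, and 0. Without the third library of the untreated mutant 1 of the 13 was lower between untreated strains, without the third library of induced wild type 7 were higher on its induction, and without the second library of the induced mutant 4 were higher and 1 lower on induction of the mutant. The annotation words for organelle-encoded and homing proteins matched 2 more loci (15 in all), and gave 1 higher and 13 lower between induced strains, 10 and 0 for wild type induction, 0 and 5 for mutant induction, 2 and 4 between untreated strains, and 0 and 9 for the difference of the responses.

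Their summed level was 184 to 190 TPM in untreated wild type, 302 to 339 in induced wild type, 146 to 205 in the untreated mutant and 95.4 to 178 in the induced mutant. Induced wild type was above all other libraries. The second library of the induced mutant was the lowest of all 12, and without it 11 of the 13 were still lower in the induced mutant than in induced wild type.

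**Figure D4:**
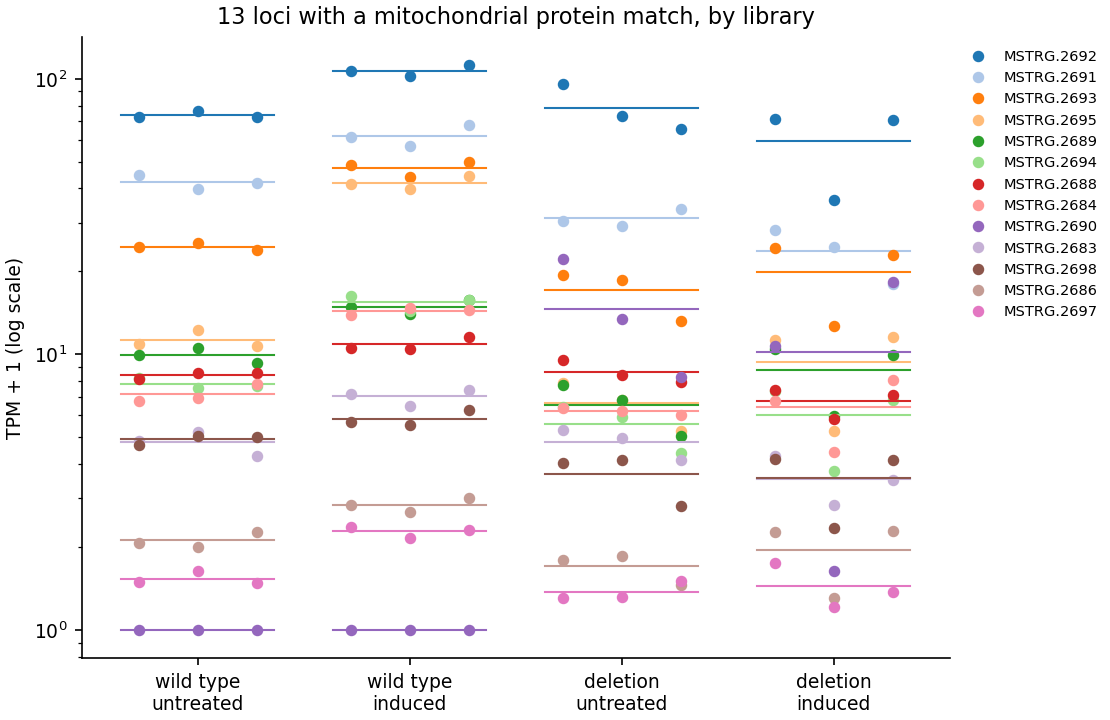
TPM + 1 (log scale) of the 13 loci with a mitochondrial protein match in each of the 12 libraries, 1 colour per locus, with 3 points and their mean (line) per group. For 12 of the loci induced wild type is the highest group, and MSTRG.2690 lies at the bottom in both wild type groups, where it is listed at 0.

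MSTRG.2695 (10112 bases), with a cytochrome b orthologue and endonuclease domains, was at 9.87, 11.2 and 9.74 TPM in untreated wild type, 40.4, 38.9 and 43.4 induced, 6.84, 5.82 and 4.25 in the untreated mutant and 10.3, 4.29 and 10.6 induced. Induced wild type was above all other libraries, and the 2 mutant groups overlapped. It rose in wild type by 1.89 (SE 0.259, adjusted p = 4.9e-05) and was 2.24 lower in the induced mutant than in induced wild type (log2 -2.24, adjusted p = 1.72e-05).

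MSTRG.2691 (2360 bases) matched a LAGLIDADG endonuclease and, in Swiss-Prot, the maturase encoded in the bI2 intron of yeast cytochrome b. It had 43.8, 38.8 and 41.0 TPM in untreated wild type, 60.7, 56.1 and 66.8 induced, 29.6, 28.4 and 32.8 in the untreated mutant and 27.4, 23.6 and 17.1 induced. The 4 groups did not overlap, and between induced strains the log2 difference was -1.42 (SE 0.143, adjusted p = 6.27e-06). MSTRG.2690, of equal length and equal match, was listed at 0 in all 6 wild type libraries and had 21.2, 12.4 and 7.29 TPM in the untreated mutant and 9.68, 0.63 and 17.3 in the induced mutant, so its mutant values were widely spread. A listed 0 may stand for an estimate that failed, so no fold is given against it.

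MSTRG.2692 (6850 bases) was the most abundant of the 13, at 71.6, 75.5 and 71.6 TPM in untreated wild type, 106, 101 and 111 induced, 94.5, 72.5 and 64.5 in the untreated mutant and 70.5, 35.5 and 70.0 induced. Its induced wild type libraries were above all others, and the log2 difference between induced strains was -0.91 (adjusted p = 0.00369; 0.0984 with the same median and 0.127 with wild type collapsed). MSTRG.2693 (11770 bases), with a domain of ATP synthase subunit c, was at 23.6, 24.5 and 22.8 TPM in untreated wild type, 47.5, 43.2 and 49.1 induced, 18.4, 17.6 and 12.2 in the untreated mutant and 23.3, 11.6 and 21.9 induced, with a difference between induced strains of -1.31 (adjusted p = 0.000284). MSTRG.4117 (6151 bases), named here for its orthologue and matched to the assembly factor SDHAF1, was at 5.05 to 5.23, 6.85 to 8.05, 4.21 to 6.46 and 3.03 to 4.54 TPM in untreated wild type, induced wild type, untreated mutant and induced mutant.

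The 5 loci with the largest rises in the untreated mutant had no protein match. MSTRG.6797 (1106 bases) was at 162, 152 and 179 TPM in the untreated mutant, 4.57, 2.14 and 2.11 in the induced mutant, 0.36, 0.59 and 0.26 in untreated wild type and 0.08 or less in induced wild type. The untreated mutant libraries stood far above all others. MSTRG.6797 reached 1 TPM in mutant libraries only, so its level against wild type is given with no test. Its log2 change on induction of the mutant was -5.44 (SE 0.205, limma adjusted p = 8.9e-10).

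MSTRG.3398 (398 bases) was at 622, 366 and 289 TPM in the untreated mutant and at 4.23 to 26.2 TPM in the other 9 libraries (log2 5.22 against untreated wild type, SE 0.477, adjusted p = 2.62e-06). MSTRG.7226 (1001 bases) and MSTRG.1486 (896 bases) were listed at 0 in all 6 wild type libraries. In the untreated mutant MSTRG.7226 had 36.7, 22.4 and 25.03 TPM and MSTRG.1486 had 47.5, 23.1 and 18.4, and in the induced mutant they were at 0.09 or less and listed at 0, so the untreated mutant was the only group with a level. MSTRG.2783 (2264 bases) was at 17.0, 18.1 and 17.7 TPM in the untreated mutant and 0.37 or less in untreated wild type (log2 3.95, SE 0.17, adjusted p = 4.92e-09), with 4.8, 4.83 and 6.45 in induced wild type.

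High in untreated wild type and low elsewhere was the opposite pattern. MSTRG.10788 (3340 bases) was at 41.2, 41.3 and 39.8 TPM in untreated wild type. It was at most 0.38 TPM in the untreated mutant and 2.33 in the induced mutant, and all induced wild type libraries listed it at 0. Its entry in the rule rested on untreated wild type, so its levels are given with no test. MSTRG.10931 (3496 bases), which matches a hypothetical protein of Duddingtonia flagrans, was at 46.4, 43.2 and 43.7 TPM in untreated wild type, 1.98, 2.03 and 0.64 induced, 1.44, 3.37 and 3.34 in the untreated mutant and 9.27, 5.64 and 6.36 induced. For both loci the untreated wild type libraries were far above all others.

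MSTRG.10931 was lower in the untreated mutant by 3.66 (log2 -3.66, SE 0.282, adjusted p = 6.42e-07), fell on induction of wild type (-4.21, adjusted p = 1.16e-07) and rose on induction of the mutant (1.15, adjusted p = 0.00283). MSTRG.6316 (1165 bases) had 30.4, 33.2 and 29.6 TPM in untreated wild type and 1.02 to 3.92 in the other 9 libraries (untreated strains -3.54, SE 0.25, adjusted p = 3.02e-07). MSTRG.11511 (695 bases) had 232, 226 and 223 TPM in untreated wild type, 15.6, 15.9 and 16.9 induced, 37.2, 35.2 and 34.2 in the untreated mutant and 28.5, 29.6 and 25.6 induced. It fell in wild type by 3.73 (log2 -3.73, SE 0.0703, adjusted p = 1.09e-11) and in the mutant by 0.34 (-0.34, adjusted p = 0.000861), and the responses differed by 3.39 (adjusted p = 1.06e-09).

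MSTRG.5883 (3948 bases), matched to a hypothetical protein of Drechslerella stenobrocha, was listed at 0 in the untreated mutant and at 10.1, 9.30 and 7.90 TPM in untreated wild type, 18.3, 16.9 and 19.4 in induced wild type and 9.21, 8.36 and 3.64 in the induced mutant. Its induced mutant libraries were below induced wild type (log2 -1.33, SE 0.243, adjusted p = 0.0005). MSTRG.3388 (375 bases) was at 18.5, 28.3 and 31.0 TPM in untreated wild type and 29.8, 48.7 and 40.7 induced, against 0 to 7.26 TPM in the mutant. It was lower in the mutant by 3.22 untreated (log2 -3.22, SE 0.731, adjusted p = 0.00252) and 3.32 induced (-3.32, adjusted p = 0.00177), and both calls ended with wild type collapsed (adjusted p = 0.111 and 0.0891).

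**Figure D5:**
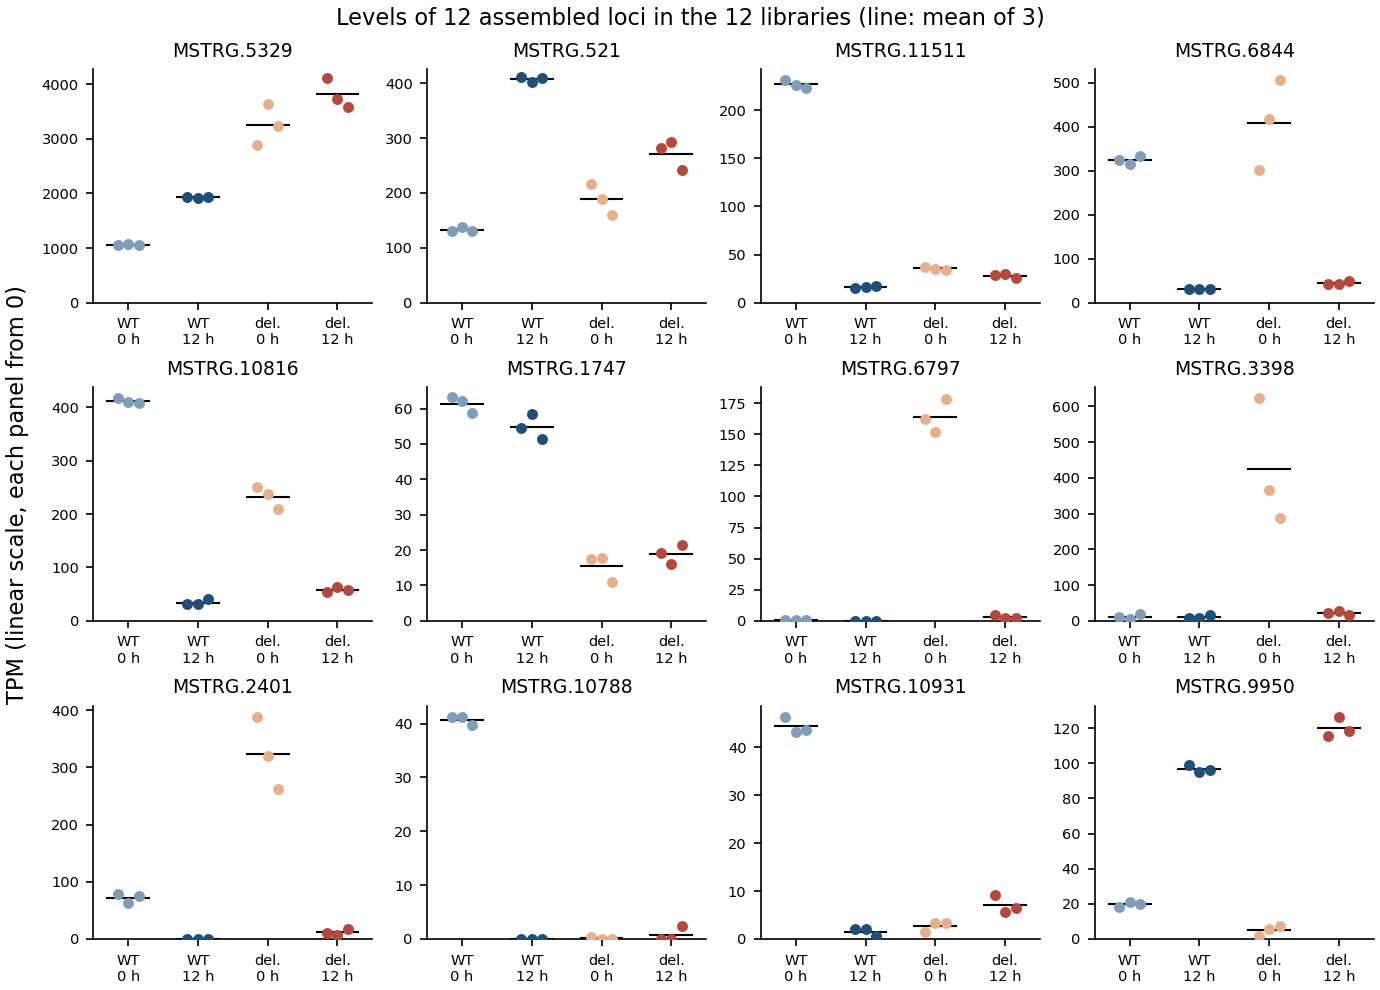
TPM (linear scale from 0) of 12 loci in the 3 libraries of each group, with their mean as a line (WT, wild type; del., AoPkaC1 deletion mutant; 0 h, untreated; 12 h, induced). MSTRG.6797, MSTRG.3398 and MSTRG.2401 are highest in the untreated mutant, MSTRG.10788, MSTRG.10931 and MSTRG.11511 in untreated wild type, and MSTRG.521 in induced wild type.

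MSTRG.3388 and MSTRG.2690, described above, were among the loci with the largest differences between induced strains, and further ones follow here. MSTRG.1332 (2086 bases) was at 16.5, 11.0 and 18.3 TPM in the induced mutant and 12.95, 11.9 and 13.8 in the untreated mutant, against 0.11 to 0.38 TPM in all 6 wild type libraries. MSTRG.1332 entered the rule through mutant libraries alone, so its levels are given with no test. MSTRG.2401 (527 bases) fell on induction in both strains, from 78.0, 63.3 and 74.2 TPM to 0.08, 0 and 0.65 in wild type and from 389, 320 and 263 to 10.6, 6.86 and 16.6 in the mutant. At each time the mutant libraries lay above wild type (3.27 induced, SE 0.274, adjusted p = 1.61e-06, and 2.14 untreated, adjusted p = 4.1e-05).

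MSTRG.4158 (913 bases) was at 5.67, 6.93 and 9.52 TPM in the induced mutant and at 2 TPM or less in the other 9 libraries (log2 2.39 against induced wild type, SE 0.21, adjusted p = 2.26e-06). MSTRG.9962 (211 bases) was listed at 0 in all 6 wild type libraries and at 11.1, 5.98 and 6.12 TPM in the induced mutant, and in the untreated mutant it had 12.6 and 12.6 TPM in the second and the third library and was listed at 0 in the first. MSTRG.10735 (3015 bases), matched to a hypothetical protein of another Arthrobotrys oligospora record, was at 7.79, 8.45 and 8.65 TPM in induced wild type and at most 0.96 TPM elsewhere. It entered the rule through induced wild type alone, so its levels are given with no test.

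MSTRG.10684 (246 bases) was listed at 0 in 9 libraries and had 12.9, 8.50 and 21.4 TPM in induced wild type. MSTRG.9813 (244 bases) had 3.63, 4.88 and 10.9 TPM in induced wild type and was listed at 0 in the induced mutant, and in the untreated mutant its 3 libraries held 0, 26.1 and 6.20 TPM. MSTRG.8278 (463 bases) was at 5.51, 6.56 and 14.5 TPM in induced wild type and 2.33, 0.41 and 0.27 in the induced mutant (log2 -2.33, SE 0.391, adjusted p = 0.000269). MSTRG.10684 entered the rule through induced wild type alone, so its separation from the other groups was set by its entry. For MSTRG.9813 and MSTRG.8278 the groups did not overlap after induction. The libraries of all 3 loci, of 244 to 463 bases, differed widely within a group.

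Among the loci that rose most on induction, MSTRG.9950 (913 bases) reached the highest level. It had 18.4, 21.1 and 20.1 TPM in untreated wild type and 99.2, 95.1 and 96.4 induced, and 1.90, 5.94 and 7.18 in the untreated mutant and 116, 127 and 118 induced. Induced libraries were above all untreated ones in both strains, with a rise of 2.23 in wild type (SE 0.288, adjusted p = 3.03e-05) and 4.47 in the mutant (SE 0.288, adjusted p = 5.73e-08). MSTRG.7010 (426 bases) rose from at most 0.41 TPM to 10.9, 9.55 and 9.76 in wild type (3.30, SE 0.422, adjusted p = 2.75e-05) and from 0, 2.14 and 3.45 to 18.3, 23.7 and 19.2 in the mutant (3.15, adjusted p = 2.86e-05).

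MSTRG.7175 (1457 bases) rose from at most 0.48 TPM to 6.34, 6.36 and 6.28 in wild type and from at most 0.51 to 9.14, 9.95 and 8.27 in the mutant. It entered the rule through induced libraries alone, so its levels are given with no test. MSTRG.3902 (1313 bases) rose from at most 0.49 TPM to 10.3, 8.42 and 12.97 in the mutant (3.07, SE 0.183, adjusted p = 2.92e-08) and reached 4.31, 4.29 and 4.81 in induced wild type (1.56, adjusted p = 1.38e-05). MSTRG.11083 (298 bases) and MSTRG.6601 (266 bases) rose on induction of wild type, from 0.26, 2.79 and 7.43 TPM to 28.1, 24.8 and 31.6 (3.08, adjusted p = 0.000523) and from 3.35, 17.0 and 24.6 to 87.0, 78.8 and 94.8 (2.80, adjusted p = 0.000424), and were not called in the mutant (adjusted p = 0.852 and 0.155). The responses of the strains differed for both (-3.21, adjusted p = 0.00424, and -1.97, adjusted p = 0.0282). MSTRG.5961 (302 bases) was called in wild type (2.88, SE 1.1, adjusted p = 0.0358), and the call ended without each of 5 single libraries, with adjusted p up to 0.0979, and with wild type collapsed (0.408).

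The loci that fell most included several at high levels. MSTRG.4337 (1359 bases) fell in wild type from 38.9, 36.7 and 42.4 TPM to 1.53, 1.65 and 2.11 (log2 -3.87, SE 0.17, adjusted p = 3.81e-09) and in the mutant from 8.74, 7.12 and 7.75 to 3.15, 1.90 and 1.58 (-1.49, adjusted p = 7.11e-06). MSTRG.2331 (224 bases) fell in the mutant from 74.8, 56.4 and 132 TPM to 0, 0 and 22.8 (-4.86, SE 1.24, adjusted p = 0.0036), and its wild type libraries ran from 2.77 to 58.9 TPM with both groups overlapping. MSTRG.10816 (452 bases), matched to a hypothetical protein of another record of the species and chosen after its values were seen, fell from 418, 410 and 409 TPM to 31.7, 30.8 and 40.2 in wild type (-3.56, SE 0.104, adjusted p = 1.96e-10) and from 250, 238 and 211 to 53.1, 63.0 and 57.7 in the mutant (-1.99, adjusted p = 1.06e-08).

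Some loci matched the same protein, and the counting may have split 1 transcript among them. There were 17 matches shared by 34 loci in all. MSTRG.6844 (1778 bases) and MSTRG.6841 (2688 bases), chosen after their values were seen, matched 1 hypothetical protein and fell together. MSTRG.6844 went from 324, 315 and 332 TPM to 30.4, 32.1 and 31.9 in wild type (log2 -3.32, SE 0.146, adjusted p = 3.92e-09) and from 301, 417 and 506 to 43.0, 42.8 and 49.6 in the mutant (-3.12, adjusted p = 4.43e-09). MSTRG.6841 went from 47.9, 47.0 and 49.4 to 6.67, 6.09 and 5.85 in wild type and from 81.3, 109 and 122 to 10.8, 10.4 and 10.9 in the mutant. In both strains the untreated libraries of both loci were above all induced ones.

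MSTRG.5164 (6711 bases) and MSTRG.5163 (6758 bases) matched a hypothetical protein of Tuber melanosporum. MSTRG.5164, chosen after its values were seen, fell from 379, 379 and 388 TPM to 49.6, 49.8 and 48.9 in wild type (log2 -2.93, SE 0.0786, adjusted p = 1.32e-10), and in the mutant from 175, 218 and 212 to 97.5, 91.2 and 101 (-1.05, adjusted p = 2.02e-07; -0.11 and 0.431 with the same median). MSTRG.5163 ranged from 0.80 to 9.87 TPM. Its group mean fell on induction too, from 6.53 to 1.19 TPM in wild type and from 8.19 to 2.61 in the mutant. MSTRG.9651 (3333 bases, chosen after its values were seen) was at 151, 147 and 147 TPM in untreated wild type, 55.7, 56.9 and 54.4 induced, 40.5, 57.2 and 56.6 in the untreated mutant and 70.6, 69.2 and 77.7 induced. Its untreated wild type libraries were above all others, it was lower in the untreated mutant by 1.53 (log2 -1.53, SE 0.113, adjusted p = 4.52e-07), and MSTRG.9652, with the same match, had group means of 0.69 to 2.78 TPM.

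Of the 8 loci matched to a named gene of strain ATCC 24927, 2 matched AOL_s00088g27, whose own level was 252 to 369 TPM by group mean while MSTRG.1233 and MSTRG.7301 stayed at 0.22 to 3.62. MSTRG.7234 (1644 bases, likewise chosen after its values were seen) was instead above the gene it matched, at group means of 23.5, 26.9, 21.6 and 17.1 TPM against 5.24, 1.64, 2.53 and 1.25 for AOL_s00078g503. It was the only one of the 8 with a mean over the 12 libraries of 10 TPM or more.

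The 6 annotated genes whose annotation names conidia or hydrophobins, fixed as markers of spores and aerial hyphae, had a summed level of 21.3 to 23.2 TPM in untreated wild type, 11.3 to 11.9 in induced wild type, 39.9 to 40.6 in the untreated mutant and 47.4 to 76.4 in the induced mutant, with 2 to 5 of the 6 above 0 in a library. These levels differed with strain and with induction, and their part in the results above was not tested.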

How the data were processed

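RNA-seq libraries of 4 groups of 3 were used, with groups and replicate numbers from the sample titles. The authors deposited expression as TPM (a relative abundance) with length and annotation for each entry, per the file headers; the aligner HISAT2 and the assembler StringTie appear in the submitters' processing notes with no version, and the genome build is not given in the sources used here. TPM have a fixed sum per library, so the depth is unknown and no interval is given. Entries with an empty gene name and an assembler identifier are the loci. Their annotation columns were sorted by the species and text of the protein match.

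Entries that reached 1 TPM in at least 3 libraries (9804, of which 827 loci and 8977 annotated genes) were set to log2(TPM + 1). Group means were fitted with limma 3.58.1 (trend) in R 4.3.3, on all entries at once, and p-values computed from the deposited TPM were Benjamini-Hochberg adjusted over all entries. The fit was tested on simulated data. The loci and all lists were chosen with earlier results of these data known, so no list was tested as a set and no p is given for the summed TPM. Loci are named by these rules: the 5 largest rises and falls of a comparison among called loci whose groups did not overlap and whose higher group averaged at least 5 TPM; the 10 most abundant; the 3 largest differences of response in each direction; and the 3 most abundant of each annotation list. Any other locus is marked in the text as chosen later. Alternatives were the pseudocount, the filter, the scaling, the replicate block, the variance model, the groups in the fit, wild type groups collapsed to their mean, the call rule and each library left out. The authors' deposited log2 fold changes, adjusted p-values and correlations were not used, nor were 8 columns of group means.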

Additional observations from a re-analysis of the deposited data

Results flagged for a closer look

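The change on induction differed between the strains, by the limma test of that difference, for 311 of the 827 loci, which is 37.6% against 68.7% of all tested entries. The 3 largest differences upward in the mutant were those of MSTRG.10788 (5.83 on the log2 scale), MSTRG.10931 (5.35) and MSTRG.3904 (3.83). All 3 were high in untreated wild type and low in the other groups. The entry of MSTRG.10788 rested on that group, so its value is a description. MSTRG.3904 (1950 bases, no protein match) was at 12.3, 6.41 and 11.6 TPM in untreated wild type, 0.51, 0.97 and 0.60 in induced wild type, 0, 2.19 and 0.15 in the untreated mutant and 3.54, 1.11 and 3.25 in the induced mutant.

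The 3 largest downward were MSTRG.6797 (-5.03), MSTRG.9813 (-4.91) and MSTRG.1486 (-4.82). MSTRG.6797 and MSTRG.1486 were high in the untreated mutant alone, and MSTRG.6797 reached 1 TPM in mutant libraries only. MSTRG.1486 entered the rule through the untreated mutant alone, so that a difference was set by its entry and its value is a description. It was listed at 0 in the 9 other libraries, so the size of its difference depends on the value of 1 added before the logarithm. MSTRG.9813 rested on widely spread libraries, and its call ended with wild type collapsed (adjusted p = 0.12). Of the 13 loci with a mitochondrial protein match, 8 were called for a difference between the responses, all lower in the mutant, and none with libraries set to the same median or with wild type collapsed.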

How the results depend on the processing

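Counts of called loci are given in the order untreated strains, induced strains, wild type induction, mutant induction and difference of the responses (394, 258, 409, 471 and 311). They moved by more than 1.5 times with a filter of 5 TPM, which left 247 loci (165, 142, 179, 186 and 146); when a change of 2-fold or more was also asked for (206, 106, 230, 269 and 207); and with the 3 libraries of each wild type group averaged into 1 (176, 112, 157 and 119, with mutant induction at 405). The filter of 5 TPM left 247 of 827 loci to test. The share of the tested loci that was called was then larger in every comparison. Of all entries, 67.5%, 75.5%, 73.9%, 84.4% and 75.8% were called with that filter. With the 2-fold rule 23.3%, 22.9%, 32.2%, 47.2% and 41.3% of all entries were called. Averaging wild type lowered the share of all entries called too. Leaving out 1 library gave 347 to 402, 215 to 278, 366 to 439, 432 to 465 and 278 to 316 called loci.

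The summed TPM differed between the first and the second group by 4162, 2536, 4739 and 3113 in the first 4 comparisons. Libraries set to the same median gave 863, 12701, 8170 and 20008. Leaving out MSTRG.3757, MSTRG.3758, MSTRG.3760 and MSTRG.5329, without that rescaling, gave 224, -825, -2945 and -3994. Leaving out 1 library gave 3757 to 4555, 894 to 5246, 2029 to 6381 and 2414 to 4382; without the third library of induced wild type the second and the third value became 5246 and 2029, without the first 894 and without the second 1468, and without the first library of the induced mutant the second became 3804.

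For the 72 loci with a called log2 fold change (187 values), 3497 of 3700 alternative values kept direction and call, 194 lost the call and 9 changed sign, all 9 with libraries set to the same median. The 9 were MSTRG.5329 for the difference of the responses (0.067), MSTRG.7086 (0.26) and MSTRG.10967 (0.15) between induced strains, and for mutant induction MSTRG.4219 (0.64), MSTRG.9697 (0.16), MSTRG.2691 (0.49), MSTRG.2688 (0.48), MSTRG.2683 (0.26) and MSTRG.6298 (0.61). Collapsing wild type in that way ended 68 of the 187 calls. In that fit the spread came from the mutant libraries alone, and the fold changes stayed as they were. The lost calls therefore do not speak of the size of a change.

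Replicate numbers did not pair the libraries. The deviations of same-numbered libraries from their own group means correlated at -0.07 to 0.06 between groups. By that measure not every library correlated best with its own number. With the replicate block the counts were 385, 250, 409, 462 and 301, and 3 of the 187 calls were lost. The unknown depth limits the short and low loci most.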
